A study of Mus musculus with 4 samples.

Results

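To see what risperidone did to the Notch pathway at the transcript level, 10 genes were read from the deposited table by their symbols. They are the receptors Notch1, Notch2 and Notch3, the ligands Jag1, Jag2 and Dll1, the DNA-binding factor Rbpj and the target genes Hes1, Hey1 and Heyl, and together they make 10 of the 16051 genes listed. The cells were 3T3-L1, a mouse embryonic fibroblast line (strain NIH SWISS per the labels) that forms adipocytes in culture. Per the study's methods all cells were first differentiated with isobutyl-methylxanthine, dexamethasone and insulin, and then kept for 48 h with the vehicle DMSO or with risperidone, an atypical antipsychotic, at 100 μM. Each of the 2 treatments has 2 libraries, each made from RNA pooled from 3 cultures. The p-values thus measure the spread between pools and not between single cultures. Whether the pools came from separate experiments is not stated in the sources used here. The labels call the control untreated, and the word control is used here for it.

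Notch receptors are single-pass membrane proteins that bind ligands of the Jagged and Delta-like families on a neighbouring cell. Binding exposes the receptor to ADAM metalloproteases and then to gamma-secretase, and the freed intracellular domain moves to the nucleus, where it joins Rbpj and Mastermind-like coactivators on DNA. Without it, Rbpj recruits corepressors. Hes and Hey genes, which encode basic helix-loop-helix repressors, are the classic targets, and the pathway is known as a regulator of the choice between precursor growth and adipocyte differentiation.

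The libraries held between 15883712 and 16374119 estimated counts. The labelled cell type was checked against its markers. Of 10 adipocyte markers, 5 reached a mean of 1 FPKM (fragments per kilobase of transcript, scaled to the mapped reads of a library), among them Lpl, Fabp4 and Pparg, while the defining markers Adipoq, Cebpa, Cidec and Lep had at most 5 counts in any library. Of 9 preadipocyte or fibroblast markers, 8 reached it. The labels also name retina as the source of RNA, and the 5 retina markers in the table summed to between 51 and 57 counts in every library. One library stood apart. The 12 kidney markers summed to 3191 counts in risperidone replicate 2 and to between 63 and 80 in the other libraries, and the 7 endothelial markers in the table to 55 and to between 11 and 14. Fold changes of those of the 10 Notch genes that could be fitted are also given without this library.

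Among the 10 genes, levels per length spread over a wide range. In the control libraries Rbpj was highest (16.3 ± 0.679 FPKM, SD, n = 2), followed by Notch2 (14.4 ± 0.658), Hes1 (3.86 ± 0.255), Jag1 (3.51 ± 0.184), Jag2 (0.705 ± 0.00707), Notch1 (0.355 ± 0.0354), Hey1 (0.225 ± 0.0212) and Notch3 (0.05 ± 0.0141). Dll1 and Heyl were listed at 0 FPKM in both. Neighbours in this order did not overlap between the control libraries, apart from Dll1 and Heyl. With risperidone the order was the same, but the ranges of Notch1 and Hey1 overlapped. A mean of at least 1 FPKM over all libraries was required for the main test, and 4 of the 10 genes had it, namely Notch2, Jag1, Hes1 and Rbpj. The other 6 were read without this limit.

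**Figure D1:**
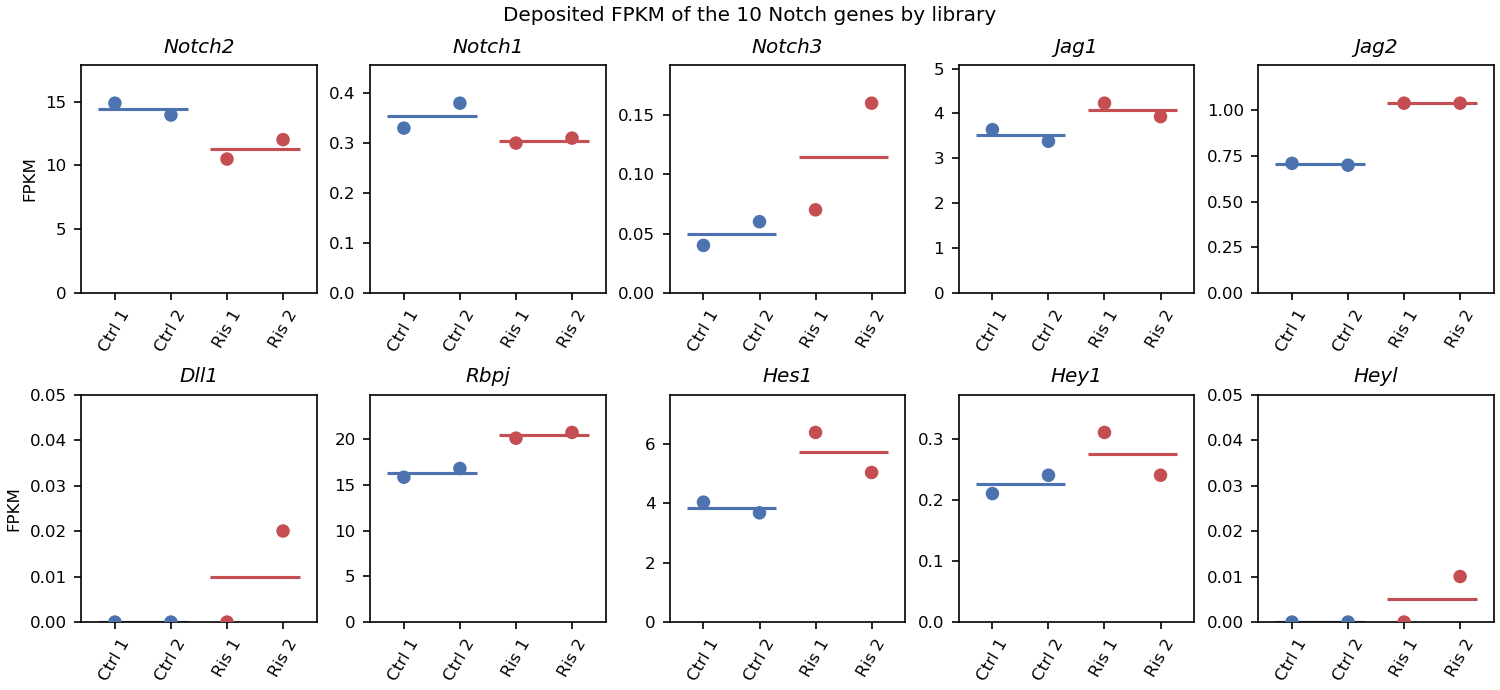
Deposited FPKM of each of the 10 Notch genes in the 2 control (blue) and 2 risperidone (red) libraries, where each point is a library, each line a group mean, and each panel has its own axis from 0. Rbpj, Hes1, Jag1 and Jag2 lie higher in both risperidone libraries and Notch2 lies lower, while Dll1 and Heyl are at or near 0.

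All 4 tested genes changed. Rbpj, Hes1 and Jag1 rose and Notch2 fell in edgeR's quasi-likelihood test, two-sided, with Benjamini-Hochberg adjustment over 10243 genes and a threshold of 0.05. Risperidone moved a large part of the transcriptome, and 64.3% of all genes tested were called, 32.1% as higher and 32.2% as lower, so 4 calls of 4 genes are read against that share. The log2 fold changes of the 4 genes were moderate beside those of all genes. A larger absolute change was seen in 54.8% of the tested genes for Notch2, 48.4% for Jag1, 28.6% for Rbpj and 17.9% for Hes1. The same 3 rises and 1 fall were called without risperidone replicate 2, the library with kidney transcripts.

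Notch2, the receptor that carried nearly all receptor transcripts, was lower after risperidone. It lies on chromosome 3 from 98013538 to 98150367 on the plus strand (GRCm38.p6; NCBI Gene 18129). Its level was 14.9 and 13.9 FPKM in the control libraries and 10.5 and 12.01 FPKM in the risperidone libraries, from 2525, 2296, 1771 and 1991 counts. Both risperidone libraries lay below both controls. The log2 fold change was -0.26 (standard error 0.0629, adjusted p = 0.00362 in edgeR's test), which is 0.833 of the control level. The change was -0.36 without risperidone replicate 2 and -0.18 without risperidone replicate 1, so its size depended on the library left out. Without control replicate 1 it was -0.21 and without control replicate 2 it was -0.31. With offsets for trends along length and GC content it was -0.14, still called. Notch2 is among the longest transcripts of the set, at about 10373 bases as implied by its counts and FPKM.

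Notch1 and Notch3 were much less abundant than Notch2, and Notch3 had the fewer counts. Notch1, known best from T cell leukaemia and vascular development (chromosome 2, from 26457902 to 26503822, minus strand), had 50 and 56 counts in the control libraries and 45 and 46 in the risperidone libraries. The groups did not overlap, yet without the limit on low values its log2 fold change of -0.13 (standard error 0.188) had an adjusted p of 0.629 in edgeR's test. It was -0.12 without risperidone replicate 2 and ranged from -0.22 to -0.03 with each library left out in turn. Over the 16021 genes of the fit without the limit 37.6% were called, 18.4% as higher and 19.3% as lower. Notch3, a receptor typical of smooth muscle and pericytes (chromosome 17, from 32120820 to 32166896, minus strand), had 5 and 7 counts with control and 9 and 20 with risperidone. The highest value was that of risperidone replicate 2. Its log2 fold change of 1.34 (standard error 0.619) was not called (adjusted p = 0.158), fell to 0.69 without risperidone replicate 2 and was called without risperidone replicate 1 (1.81, adjusted p = 0.0339, edgeR). The endothelial and kidney markers that were high in replicate 2 moved with this value, and their part in it was not tested.

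As a share of the summed FPKM of the receptors Notch1 to Notch4, Notch2 made up 95.8% and 95.02% in the control libraries and 95.5% and 95.1% with risperidone. The receptor pool itself summed to 15.5 and 14.7 FPKM with control and to 10.99 and 12.6 FPKM with risperidone. The groups overlapped in the share of Notch2, while the sum was lower in both risperidone libraries.

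Both Jagged ligands rose in edgeR's test, and both calls depended on the setting. Jag1, a Jagged-family ligand with roles in liver, heart and vessel development (chromosome 2, from 137081451 to 137116520, minus strand; NCBI Gene 16449), was at 3.64 and 3.38 FPKM with control and at 4.23 and 3.93 FPKM with risperidone. Its counts were 321 and 289 against 370 and 340. The risperidone libraries lay above the controls by a small margin. The log2 fold change was 0.31 (standard error 0.0875, adjusted p = 0.00883, edgeR). This call was lost without control replicate 2 (0.26, adjusted p = 0.134) and with DESeq2 (adjusted p = 0.0698), and with limma the change was 0.17 on log2(FPKM + 1) and 0.06 on log2(TPM + 1), neither called. Without risperidone replicate 2 it was 0.37.

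Jag2, the second Jagged ligand (chromosome 12, from 112907803 to 112929812, minus strand), was less abundant, at 0.710 and 0.700 FPKM with control and 1.04 FPKM in each risperidone library, from 54, 47, 79 and 75 counts. The groups did not overlap. The nearly equal FPKM of replicates rests on few counts, which lay further apart in the control libraries (54 and 47). Since its mean lay just under 1 FPKM it was tested without the limit, where its log2 fold change was 0.70 (standard error 0.161, adjusted p = 0.0211 in edgeR's test), or 1.62 times the control level. Its adjusted p became 0.116 without control replicate 1, 0.140 without control replicate 2, 0.0501 without risperidone replicate 1, 0.0756 with DESeq2 and 0.0761 with limma on log2(FPKM + 0.1). With limma the change was 0.26 on log2(FPKM + 1), still called, and 0.27 on log2(TPM + 1) (adjusted p = 0.106). Without risperidone replicate 2 it was 0.76 and still called (adjusted p = 0.0266, edgeR).

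Dll1, the Delta-like ligand best known from somite formation (chromosome 17, from 15367354 to 15376932, minus strand), had 0 counts in 3 libraries and 1 count in risperidone replicate 2. Since a 0 is compatible with as many as 3 counts, here 0.183 to 0.189 CPM (counts scaled to the library total), no difference was detectable at this depth. Jag1 made up 80.0% and 80.1% of the ligand pool (Jag1, Jag2, Dll1, Dll3 and Dll4, summed FPKM) in the control libraries and 73.1% and 72.5% with risperidone. The share of Jag2 was 15.6% and 16.6%, then 18.0% and 19.2%, and that of Dll4, a ligand of blood vessel sprouts, 4.40% and 2.61%, then 8.98% and 7.93%. The pool summed to 4.55 and 4.22 FPKM with control and to 5.79 and 5.42 FPKM with risperidone. With 2 libraries a side an exact permutation test cannot pass 0.05, so these shares are given without one.

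**Figure D2:**
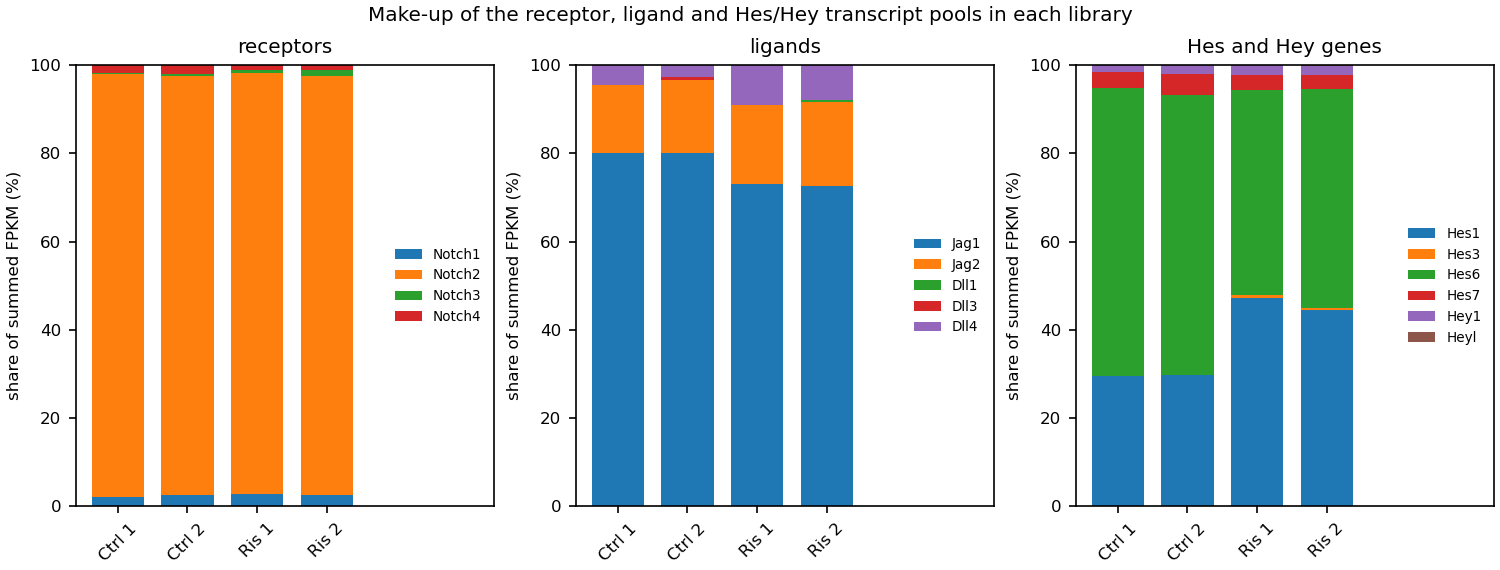
Share of each gene in the summed FPKM of the Notch receptors, of the ligands and of the listed Hes and Hey genes, as stacked bars from 0 to 100% for each of the 4 libraries. Notch2 fills 95.02% or more of the receptor bar in every library, Jag1 averages 80.05% of the ligand bar with control and 72.8% with risperidone, and Hes1 averages 29.6% and 45.9% of the last bar.

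Rbpj, the DNA-binding factor through which all Notch receptors act, rose with the smallest adjusted p of the set. It lies on chromosome 5 from 53555779 to 53657445 on the plus strand (NCBI Gene 19664). Its level was 15.8 and 16.8 FPKM in the control libraries and 20.1 and 20.7 FPKM with risperidone, from 1289, 1301, 1706 and 1723 counts. Replicates lay close together and the groups were well apart. The log2 fold change was 0.50 (standard error 0.0521, adjusted p = 1.12e-05, edgeR), and it ranged from 0.47 to 0.52 with each library left out in turn, at 0.49 without risperidone replicate 2. With limma it was 0.31 on log2(FPKM + 1) and 0.18 on log2(TPM + 1) (adjusted p = 0.0457 for the latter). The FPKM of Notch2 divided by that of Rbpj, a ratio within a library that no scaling between libraries can move, was 0.939 and 0.830 with control and 0.522 and 0.579 with risperidone.

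Rbpj protein is known to bind DNA with the core letters TGGGAA. The 250 bases before each annotated start were searched for TGGGAA on both strands (TTCCCA on the printed strand for the other one). RefSeq windows of GRCm38.p6 were at hand for 7 of the 10 genes, and Hes1, Hey1 and Heyl had none. These 7 genes have 9 windows, of which 2 held the letters, both of Rbpj and overlapping each other, and 21.6% of all 32851 windows did. The longer CGTGGGAA, which includes the core, was in 0.636% of all windows and in none of these. The windows of the 3 genes called in the main test that have one are printed to show where the letters fall. They are chr5:53590096-53590345 (plus strand) for Rbpj, whose annotated gene begins further upstream, chr3:98013288-98013537 (plus strand) for Notch2 and chr2:137116521-137116770 (minus strand) for Jag1, each 5′ to 3′ along its gene with matches in capitals.
Rbpj: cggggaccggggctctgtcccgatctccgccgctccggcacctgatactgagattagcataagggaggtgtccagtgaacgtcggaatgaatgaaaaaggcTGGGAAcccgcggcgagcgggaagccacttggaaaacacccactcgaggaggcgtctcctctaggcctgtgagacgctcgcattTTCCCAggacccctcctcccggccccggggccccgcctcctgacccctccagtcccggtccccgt
Notch2: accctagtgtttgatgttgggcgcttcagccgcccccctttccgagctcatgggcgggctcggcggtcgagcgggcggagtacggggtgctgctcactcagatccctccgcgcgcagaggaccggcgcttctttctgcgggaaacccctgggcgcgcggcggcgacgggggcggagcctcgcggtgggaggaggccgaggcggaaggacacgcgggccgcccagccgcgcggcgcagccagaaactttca
Jag1: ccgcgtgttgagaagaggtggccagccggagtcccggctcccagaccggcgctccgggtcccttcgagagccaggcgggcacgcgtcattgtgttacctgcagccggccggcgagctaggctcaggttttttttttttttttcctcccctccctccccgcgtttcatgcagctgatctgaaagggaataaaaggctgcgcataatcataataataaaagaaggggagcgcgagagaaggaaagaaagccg
In the Rbpj window the matches begin 149 and 65 bases before the start, the first as TGGGAA and the second as TTCCCA. Such a match is a description of the letters and not a binding site.

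Hes1, the classic Notch target and a repressor that holds back differentiation in many tissues, had the largest rise of the 4 tested genes in the main test, though Rbpj rose as much or more without risperidone replicate 1 (0.51 against 0.47) and with length and GC offsets (0.62 against 0.61). It lies on chromosome 16 from 30065357 to 30067796 on the plus strand (NCBI Gene 15205). It was at 4.04 and 3.68 FPKM with control and at 6.39 and 5.04 FPKM with risperidone, from 87, 77, 137 and 106 counts. Both risperidone libraries were above both controls, with more spread between them than between the controls. Its log2 fold change was 0.66 (standard error 0.181, adjusted p = 0.00782, edgeR), or 1.58 times control, and 0.83 without risperidone replicate 2. Without risperidone replicate 1 it was 0.47 (adjusted p = 0.0478, edgeR) and without control replicate 2 it was 0.59 (adjusted p = 0.0483, edgeR), both just under the threshold. It was called in every alternative that tested it, and limma gave 0.46 on log2(FPKM + 1) and 0.37 on log2(TPM + 1).

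Hey1 and Heyl, the other targets of the set, gave little signal. Hey1 (chromosome 3, from 8663359 to 8667038, minus strand), a repressor active in heart and vessels, had 7 and 8 counts with control and 10 and 8 with risperidone. The groups overlapped, and without the limit its log2 fold change of 0.35 (standard error 0.524) had an adjusted p of 0.629 in edgeR's test. It was 0.52 without risperidone replicate 2 and 0.18 without risperidone replicate 1. Heyl (chromosome 4, from 123233556 to 123249870, plus strand) had 0 counts in 3 libraries and 1 in risperidone replicate 2, within what a count of 0 allows. Of the other Hes and Hey genes listed, Hes2, Hes5, Hey2 and Helt are not listed in the table used here. Hes6, a relative that antagonises Hes1 in neurons, fell from 8.41 ± 0.778 to 5.94 ± 0.488 FPKM (SD, n = 2), with a log2 fold change of -0.40 (adjusted p = 0.0370, edgeR), and this call was lost without control replicate 1 (0.281), without control replicate 2 (0.0583), without risperidone replicate 2 (0.0949), with DESeq2 (0.139) and without the limit on low values (0.0615). Within the summed FPKM of the 6 Hes and Hey genes in the table, Hes1 made up 29.4% and 29.7% with control and 47.3% and 44.6% with risperidone, while Hes6 went from 65.3% and 63.5% to 46.5% and 49.6%.

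The rest of the pathway was read from lists of 77 genes grouped by role, of which 71 were in the table and 58 were tested. Of these, 20 rose and 30 fell, or 86.2% against 64.3% of all genes tested, and their median log2 fold change was -0.19 against 0.00 for all genes. Without risperidone replicate 2, 19 rose and 30 fell. Limma called 15 higher and 33 lower on log2(FPKM + 1), and 8 and 37 on log2(TPM + 1), where the median of all genes was -0.22. With length and GC offsets the counts lay closer together, at 19 higher and 26 lower.

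Among the receptors and ligands outside the 10 genes, only Dlk1 reached that mean. Dlk1, a Delta-like protein that marks preadipocytes, was at 31.6 ± 1.75 FPKM with control and 82.5 ± 1.12 FPKM with risperidone (SD, n = 2), and it rose by 1.52 on the log2 scale (adjusted p = 1.11e-08, edgeR). Notch4, Dll4 and Dlk2, named after their values were seen, were low. Notch4, an endothelial receptor, had 29 counts in each control library and 13 and 16 with risperidone (log2 fold change -0.90 without the limit, adjusted p = 0.0783, edgeR), and of its alternatives limma on log2(FPKM + 1) (adjusted p = 0.0243) and on log2(TPM + 1) (0.0240) called it. Dll4 had 11 and 6 counts with control and 28 and 23 with risperidone (1.67, adjusted p = 0.0326, edgeR). Its adjusted p was 0.105 without control replicate 1, 0.151 without control replicate 2, 0.0555 without risperidone replicate 1 and 0.0694 with DESeq2. Dlk2 had 7 and 10 counts with control and 22 and 31 with risperidone (1.72, adjusted p = 0.0254, edgeR), and its adjusted p was 0.173 without control replicate 1, 0.130 without control replicate 2 and 0.0555 with DESeq2. Low counts limit all of these values.

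Of 9 tested genes for receptor cleavage, 5 fell and 3 rose, or 88.9% against 64.3% of all genes tested. Those that fell most were Adam10, the main metalloprotease of ligand-induced cleavage, from 149 ± 0.0636 to 97.3 ± 6.28 FPKM (log2 fold change -0.52), the gamma-secretase subunit Psen2 (-0.49), Furin, which cuts the receptor on its way to the surface (-0.41), and Adam17 (-0.35). All 4 stayed lower and called in each alternative. The 3 rises were less stable. Without control replicate 1 there were 1 higher and 4 lower genes, and without control replicate 2 there were 1 and 5. DESeq2 called 0 higher and 5 lower, and limma on FPKM or TPM called 0 higher and 6 lower. For ligand endocytosis, the ubiquitin ligase Mib2 rose (0.40) and its relative Mib1 fell (-0.20, adjusted p = 0.0205, edgeR), and Mib1 was called neither without control replicate 1 (adjusted p = 0.0512) or replicate 2 (0.147) nor without risperidone replicate 1 (0.0861, log2 fold change -0.12). The log2 fold change of Mib1 was -0.08 with length and GC offsets (adjusted p = 0.285, edgeR) and was also not called with DESeq2 (0.0503) or without the limit on low values (0.0637). Among the glycosyltransferases that act on the receptor, Rfng rose (0.34) and Poglut1 fell (-0.26). Neither Mib2 (adjusted p = 0.0729) nor Rfng (0.164) was called by limma on log2(TPM + 1).

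Genes for receptor turnover went both ways, with 6 of 10 lower and 3 higher (90% called, against 64.3% of all genes). Dtx3l, of the Deltex family of ubiquitin ligases, fell from 4.75 ± 0.311 to 1.89 ± 0.205 FPKM (log2 fold change -1.24). Its relatives Dtx2 (0.39) and Dtx3 (0.55) rose, and Dtx4 (-0.04) was not called. Itch (-0.72) and Fbxw7 (-0.69), ligases that mark Notch for degradation, also fell, while Nedd4l rose (0.82). Of 8 Rbpj coactivators, 5 fell and 2 rose, or 87.5% against 64.3% of all genes tested. Without control replicate 1 the counts were 4 lower and 0 higher, DESeq2 gave 4 and 1, and limma on log2(FPKM + 0.1) and on TPM gave 0 higher. The largest changes were decreases, in Maml3 (-0.86), the acetyltransferases Crebbp (-0.67) and Ep300 (-0.56), and Kat2b (-0.53). Ep300 was at 40.0 and 37.0 FPKM with control and 23.5 and 25.8 FPKM with risperidone.

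Corepressors of Rbpj were lower in 7 and higher in 4 of 14 genes, or 78.6% against the same 64.3%. Limma called 8 lower and 3 higher on log2(FPKM + 1) and 10 lower and 0 higher on log2(TPM + 1). Tle2, a Groucho-type corepressor that Hes proteins recruit, fell from 9.68 ± 1.38 to 3.19 ± 0.127 FPKM (log2 fold change -1.51). Its relative Tle1 fell by 0.86 on the log2 scale, while Tle3 (0.26) and Tle4 (0.26) of the same family rose. Hdac1, a histone deacetylase, fell from 47.6 ± 0.651 to 18.6 ± 1.17 FPKM (-1.26), and Spen, the scaffold of Rbpj repressor complexes, fell by 0.62. All 9 tested genes listed as known targets outside the Hes and Hey family changed, 5 upward and 4 downward, where 64.3% of all genes were called. The growth regulator Myc (1.47) and Id2 (1.39), an inhibitor of helix-loop-helix factors, rose most, and its relative Id1 (-1.30) and the cell cycle inhibitor Cdkn1a (-1.07) fell most. The list took no single direction.

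**Figure D3:**
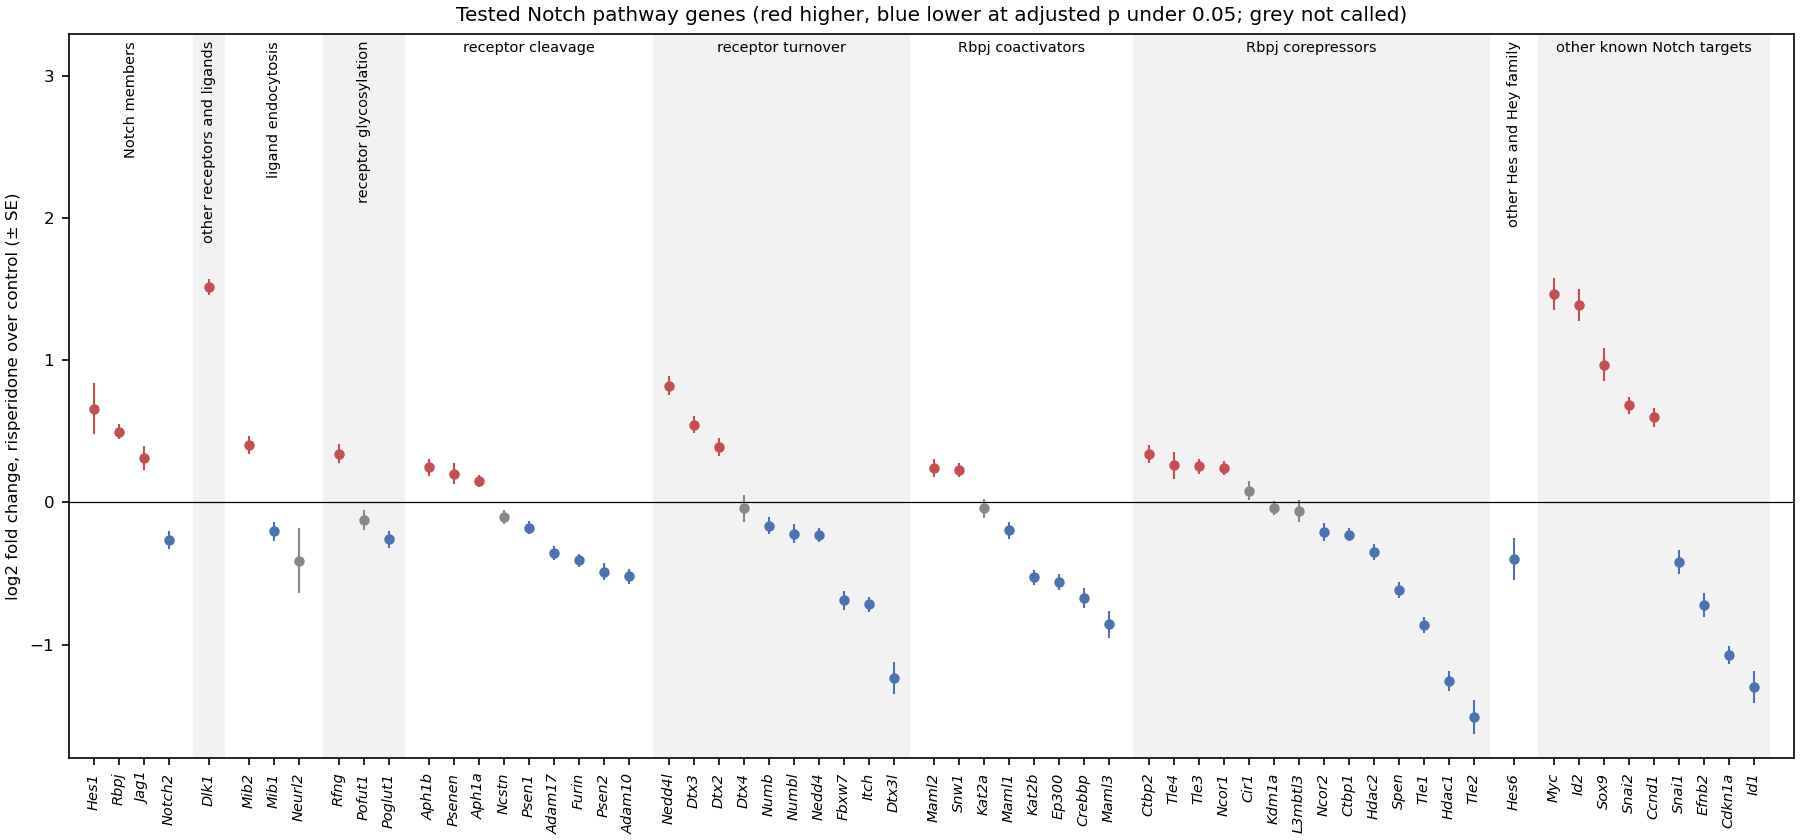
Log2 fold change of risperidone over control with its standard error for the 62 Notch pathway genes tested, grouped by role, where red points were called higher and blue points lower by edgeR (threshold 0.05) and grey points were not called. Of the 4 members Hes1, Rbpj and Jag1 lie above 0 and Notch2 below, and the coactivators and corepressors lie mostly below.

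**Figure D4:**
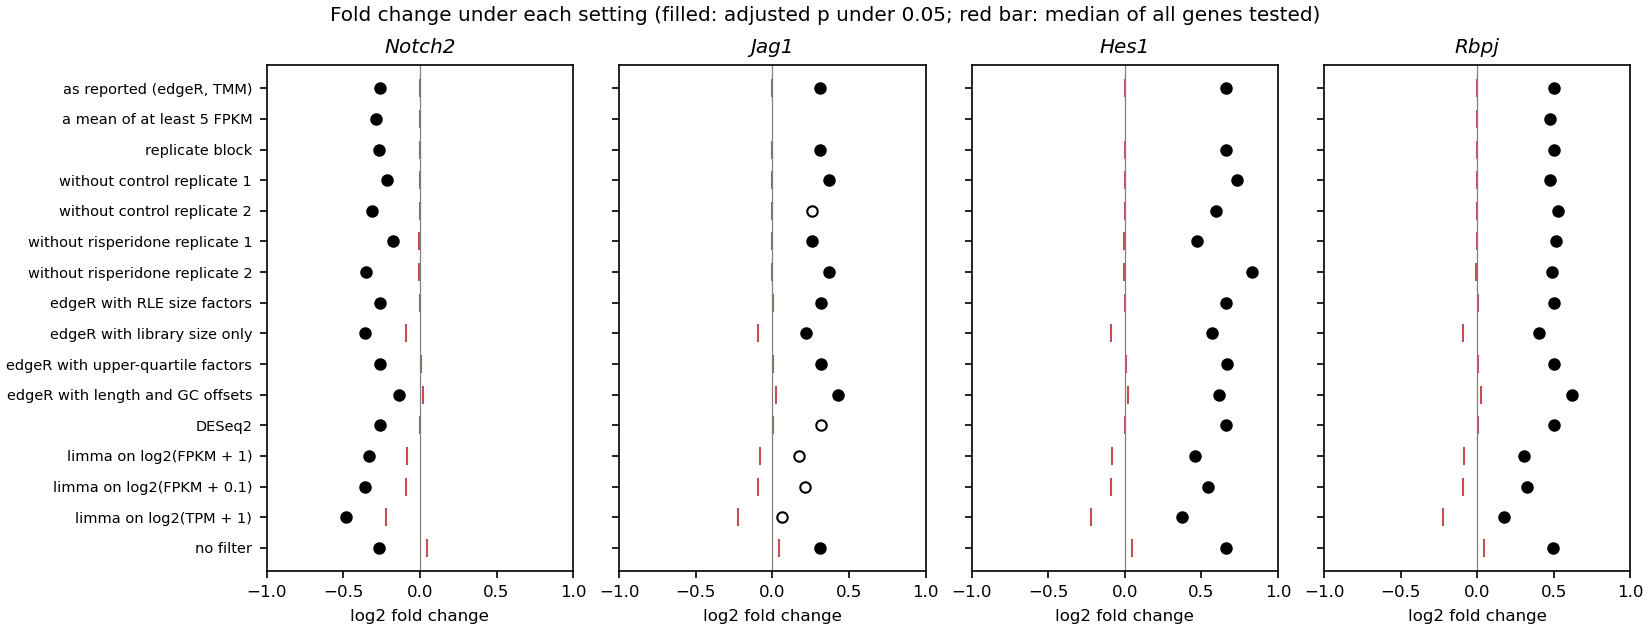
Log2 fold change of Notch2, Jag1, Hes1 and Rbpj under each analysis setting, filled where the adjusted p was under 0.05, with the median of all genes tested as a red bar. Notch2 stays below and Rbpj and Hes1 stay above 0 and called throughout, while Jag1 is not called in 5 settings.

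None of the settings reversed the direction of Notch2, Jag1, Hes1 or Rbpj. With limma the median of all genes was -0.08 on log2(FPKM + 1) and -0.22 on log2(TPM + 1), and relative to the latter the changes were -0.26 for Notch2, 0.29 for Jag1, 0.60 for Hes1 and 0.40 for Rbpj. In bulk RNA a change in the mix of cells and a change per cell cannot be told apart, and several marker genes also differed between the treatments. Of the 8 preadipocyte or fibroblast markers that reached 1 FPKM, 4 were higher in both risperidone libraries, among them Col1a1 (374 FPKM with control and 694 with risperidone) and Thy1 (36.3 and 70.4). The other 4 were lower, among them Col3a1 (107 and 51.5) and Pdgfrb (21.0 and 13.9). Their sum, 1204 and 1183 FPKM with control and 1532 and 1503 FPKM with risperidone, is dominated by Col1a1 and Vim. The adipocyte markers summed to 386 and 439 FPKM and then to 269 and 280 FPKM, mostly from Lpl and Fabp4. Fabp4, Lpl and Lipe were lower, and the groups overlapped for Pparg and Cd36. Plin1 had 9 and 14 counts with control and 1 count in each risperidone library. The 7 smooth muscle or pericyte markers summed to 112 and 105 FPKM with control and 230 FPKM in each risperidone library, nearly all from Acta2, while Rgs5 was at 0 counts in 3 libraries and Myh11, Cnn1 and Des stayed under 1 FPKM. Among the macrophage or blood markers Cd68 was at 3.07 FPKM with control and 6.52 FPKM with risperidone, and Ptprc, Csf1r and Itgam had at most 5 counts in any library. The part of these markers in the Notch values was not tested.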

How the data were processed

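mRNA of 4 libraries was sequenced (MGISEQ-2000), and the authors removed adaptors and discarded reads of low quality or with poly-N. The submitters' processing notes name Bowtie2, RSEM, DESeq2 and GRCm38.p6, without versions or roles. The authors deposited, per gene, estimated counts (whole for 91.2% to 91.7% of values, not normalized), FPKM from the DC.TOM platform and TPM, whose total is equal across libraries. Depth was 15883712 to 16374119 counts, and limits for a count of 0 cover counting error only. Strandedness is not given in the sources used here, and GENCODE M21 transcripts overlap exons of Notch1, Notch2, Notch3 and Dll1.

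Samples were grouped by the treatment label. After rounding of counts, the 10243 genes that averaged 1 FPKM or more went into edgeR 4.0.16 under R 4.3.3 (TMM factors, quasi-likelihood F-test, two-sided, Benjamini-Hochberg, threshold 0.05), and again without this limit on 16021 genes. A standard error is the size of the log2 fold change over the root of F. Alternatives, in DESeq2 1.42.0 and limma 3.58.1 among others, are given in the closing section, where length and GC offsets are smooth trends fitted with mgcv 1.9.3. Lengths came from counts and FPKM, and GC content, from GENCODE transcripts, was known for 99.1% of tested genes. Fits were also run on simulated counts with few changed genes, which cannot show how they behave where most genes change. All 10 genes are named, with up to 4 of each other list, those with the largest absolute change at an adjusted p under 0.05 and no overlap between groups. Dtx2, Dtx3, Dtx4, Tle3 and Tle4 are also named, as relatives of genes so chosen, and are not in the refits counted below. The members and lists were chosen with earlier results of these data known.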

Additional observations from a re-analysis of the deposited data

How the results depend on the processing

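Of 58 refits of Notch2, Jag1, Hes1 and Rbpj, 53 kept direction and call, 5 lost the call, each for Jag1, and 0 changed direction. Jag1 was not called without control replicate 2 (0.26), with DESeq2 (0.32), and with limma on log2(FPKM + 1) (0.17), log2(FPKM + 0.1) (0.21) and log2(TPM + 1) (0.06). The log2 fold change of Notch2 was -0.14 with length and GC offsets and -0.48 with limma on log2(TPM + 1). A limit of 5 FPKM left Rbpj as the 1 higher member, since Jag1 and Hes1 were not tested there. Of 52 refits of Jag2, Notch1, Notch3 and Hey1 without a limit, chosen after seeing the data, 45 kept direction and call, and of 425 refits of other named genes, chosen likewise, 403 did and 0 changed direction.

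With limma on log2(TPM + 1), 1536 genes were higher and 5292 lower, against 3287 and 3303, and 8 other pathway genes were higher against 20. The higher share of called genes was 49.9%, but 37.9% with library size only, 37.8% and 37.9% with limma on FPKM and pseudocounts of 1 and 0.1, and 22.5% with limma on log2(TPM + 1). With each library left out, 2 to 3 members were higher and 1 was lower, 15 to 19 other pathway genes were higher and 24 to 30 lower.

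The replicate numbers are not known to pair the libraries, and the correlation of same-numbered deviations over genes was -0.06. The replicate block gave 3292 higher and 3321 lower genes, 3 and 1 members, and 20 and 30 other pathway genes. It changed no call of a member. Counts under about 100 limit Notch1, Notch3, Hey1 and Jag2, and Hes1 in the control libraries.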
